A study of Mus musculus with 12 samples.

Results

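The 4 genes described here, Ccl3, Ccl4, Ccl6 and Ccl9, encode CC chemokines and were taken from the deposited count table by their symbols, as 4 of its 32227 genes. All 4 had a row in the table and all 4 passed the filter on low counts, as did 15083 genes in all. Bulk RNA-seq of sorted basophil-lineage populations from wild-type C57BL/6J mice gave 4 groups of 3 libraries. Basophil progenitors (BaPs) were CD200R3+ cKit- cells with high CLEC12A that carried CD34. Pre-basophils, titled immature basophils in the labels, were CD34- with high CLEC12A and low CD9. Mature basophils were CD34- with low CLEC12A and high CD9, and were sorted separately from the bone marrow (BM) and from the spleen. The labels name no treatment, and the sources used here do not give the age of the mice. Each library was made from cells pooled from several animals within a single experiment, and the errors given below therefore describe differences between pools rather than between mice. The question addressed was how the gene expression of pre-basophils stands to that of BaPs and of mature basophils of either tissue.

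CC chemokines are small secreted proteins that draw leukocytes through G protein-coupled receptors on the responding cell. CCL3 and CCL4 are short chemokines released by many myeloid and lymphoid cells upon activation, and CCL3 acts on CCR1 among other receptors. CCL6 and CCL9 are known from rodents, have an extended amino-terminal end, are made by myeloid cells and act mainly on CCR1. Activated basophils and mast cells are known sources of CCL3 and CCL4, whose transcripts are induced quickly and carry AU-rich stretches in their 3′ untranslated region (UTR) that are bound by mRNA decay factors.

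In GENCODE M21 (assembly GRCm38), all 4 genes lay on chromosome 11 in a span of 91765 bases that held 6 annotated genes. Ccl9 (ENSMUSG00000019122.8) was annotated at chr11:83572919-83578636 on the minus strand and Ccl6 (ENSMUSG00000018927.3) at chr11:83587882-83593087 on the minus strand, 9245 bases away. Ccl3 (ENSMUSG00000000982.5) followed after 54756 bases at chr11:83647844-83649355 on the minus strand. Ccl4 (ENSMUSG00000018930.3) was 13228 bases further at chr11:83662584-83664683, on the plus strand. Ccl9 and Ccl6 had 4 exons each and transcripts of 3006 and 1440 bases, whereas Ccl3 and Ccl4 had 3 exons each and transcripts of 766 and 660 bases. The study's methods name transcripts of the same assembly for mapping, while the submitters' processing notes name GRCm39, so that gene borders behind the counts may differ slightly from these.

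The AU-rich stretches of the 3′ UTRs are shown because transcripts of this family are known for them. Capitals mark the pentamer ATTTA, the core of AU-rich elements, in a window of 30 bases per gene, written in the sense of the transcript with T for U (GRCm38, all within the last exon):
Ccl3, chr11:83648085-83648114, minus strand: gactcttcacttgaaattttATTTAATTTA
Ccl4, chr11:83664473-83664502, plus strand: ttcagatttcctgcccctcttcttaATTTA
Ccl6, chr11:83588731-83588760, minus strand: ccttgtttttatagatATTTAaagcATTTA
Ccl9, chr11:83573245-83573274, minus strand: tgagtccATTTAtacagtggatctcATTTA
The 3′ UTR of Ccl3 held 5 such pentamers in 409 bases, or 1.22 per 100 bases, a density reached by 0.509% of the 11384 tested genes with an annotated 3′ UTR. That of Ccl4 held 2 in 302 bases, or 0.662 per 100 bases, reached by 3.0% of genes. Ccl6 had 4 in 943 bases, or 0.424 per 100 bases, reached by 9.36%, and Ccl9 had 5 in 2465 bases, or 0.203 per 100 bases, reached by 35.6%. The median density over those genes was 0.137 per 100 bases. The densities fell in the order Ccl3, Ccl4, Ccl6, Ccl9, which is also the order of increasing UTR length except for Ccl4, the shortest. A match is a description of the sequence and not evidence of a bound factor.

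The 250 bases before the RefSeq start are shown for the 3 genes with an entry in the RefSeq promoter table (GRCm38.p6). They were chosen since these genes moved together between groups. For Ccl3 the RefSeq start is not that of GENCODE, since its gene border there is 83649355 and the window shown begins at 83649379. The entry for Ccl4 was missing. Both strands were searched for AGATAA (bound by factors of the GATA family), TGANTCA (the Fos and Jun motif), TTGCNNAA (C/EBP), TTCNNNGAA (STAT), GGAAGT (ETS or PU.1), TGTGGT (RUNX), GGAAAA (NFAT) and the NF-kB consensus. Capitals mark the matches, which did not overlap each other, and each sequence is written in the sense of its gene:
Ccl9, chr11:83578637-83578886, minus strand: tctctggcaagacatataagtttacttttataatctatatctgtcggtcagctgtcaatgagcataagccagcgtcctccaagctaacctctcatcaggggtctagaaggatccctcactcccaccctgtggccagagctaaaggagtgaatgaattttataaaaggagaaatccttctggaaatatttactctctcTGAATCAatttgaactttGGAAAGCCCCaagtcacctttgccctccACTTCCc
Ccl6, chr11:83593088-83593337, minus strand: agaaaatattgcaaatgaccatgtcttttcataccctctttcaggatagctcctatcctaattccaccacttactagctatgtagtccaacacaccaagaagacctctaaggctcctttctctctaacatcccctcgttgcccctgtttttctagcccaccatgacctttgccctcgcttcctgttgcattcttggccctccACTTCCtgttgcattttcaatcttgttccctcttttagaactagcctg
Ccl3, chr11:83649379-83649628, minus strand: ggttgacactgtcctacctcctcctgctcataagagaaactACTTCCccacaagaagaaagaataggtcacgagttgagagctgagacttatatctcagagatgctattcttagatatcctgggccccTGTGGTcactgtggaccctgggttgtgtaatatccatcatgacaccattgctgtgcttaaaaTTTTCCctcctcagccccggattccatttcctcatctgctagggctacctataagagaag
The only motif found in all 3 windows was that of ETS or PU.1, which 24.2% of 9919 promoters of tested genes held. Its first base was at position -7 in Ccl9, -48 in Ccl6 and -209 in Ccl3, counted with -1 as the last base before the start. Ccl9 also held the Fos and Jun motif at -53, found in 4.79% of promoters, and the NF-kB consensus at -35, found in 8.22%. Ccl3 also held the RUNX motif at -122, found in 11.5% of promoters, and the NFAT motif at -60, found in 19.1%. No window held the motif of GATA, C/EBP or STAT, which 6.7%, 7.84% and 6.2% of promoters held, and this says only that these letters are not in these windows.

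The start regions of Ccl9 and Ccl6 resembled each other. A local alignment of the table's windows paired 74 columns, of which 59 (79.7%) were identical, whereas Ccl3 aligned with either over at most 12 columns. The ETS or PU.1 matches of Ccl9 and Ccl6 sit in this stretch, which is shown by its first 30 bases with capitals for the bases identical in the alignment:
Ccl9, chr11:83578625-83578654, minus strand: CTTtGCCCTCCACTTCCcacTGCACACTGT
Ccl6, chr11:83593117-83593146, minus strand: CTTgGCCCTCCACTTCCtgtTGCAttttCA
The bases shown run over the annotated start in Ccl9, while in Ccl6 they lie before it, from position -59. Gaps of the alignment are not drawn, so that letters after a gap do not face their partners. For this reason 26 bases are capital in Ccl9 and 22 in Ccl6.

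Library totals ran from 3596108 to 8151030 counts, so that the 3-count limit behind a count of 0 lay between 0.29 and 0.955 CPM (read counts scaled to a common library total, with TMM factors). The lowest count of any member in any library was 535, for Ccl6 in BaP replicate 1, so that no member was near this limit. All 10 basophil markers were detected in every library, and their summed level was higher in the CLEC12A-high groups. It ran from 25482 to 68567 CPM among BaP libraries and from 61897 to 71476 CPM among pre-basophil libraries. Among mature basophils it ran from 13222 to 16151 CPM for the BM and from 7334 to 8205 CPM for the spleen. BaP replicate 3 stood apart. It had the lowest basophil marker sum of the CLEC12A-high libraries, at 25482 CPM, and the highest sums for erythroid markers (2400 CPM, against 8.84 and 11.3 in the other BaP libraries) and T or NK cell markers (1245 CPM, against 445 and 341). Fold changes and ratios of the 4 chemokines that involve it are given with and without it. It also entered the estimate of spread shared by all groups, and without it 18.0% rather than 7.83% of genes differed between spleen and BM mature basophils. Its omission from comparisons that do not involve BaPs was chosen after seeing the data.

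The 4 genes rose in order from BaPs through pre-basophils to BM mature basophils. Their summed share of a library's counts was 0.713% ± 0.0674 for BaPs and 1.79% ± 0.168 for pre-basophils, and it was 4.2% ± 0.181 for BM and 3.51% ± 0.226 for spleen mature basophils (SD, n = 3 each). In every BM mature library Ccl4 was the gene with the 3rd highest count and Ccl3 that with the 4th highest. In BaPs they ranked between 17 and 25. Lower RNA per cell and fewer cells that express a gene cannot be told apart in bulk samples.

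**Figure D1:**
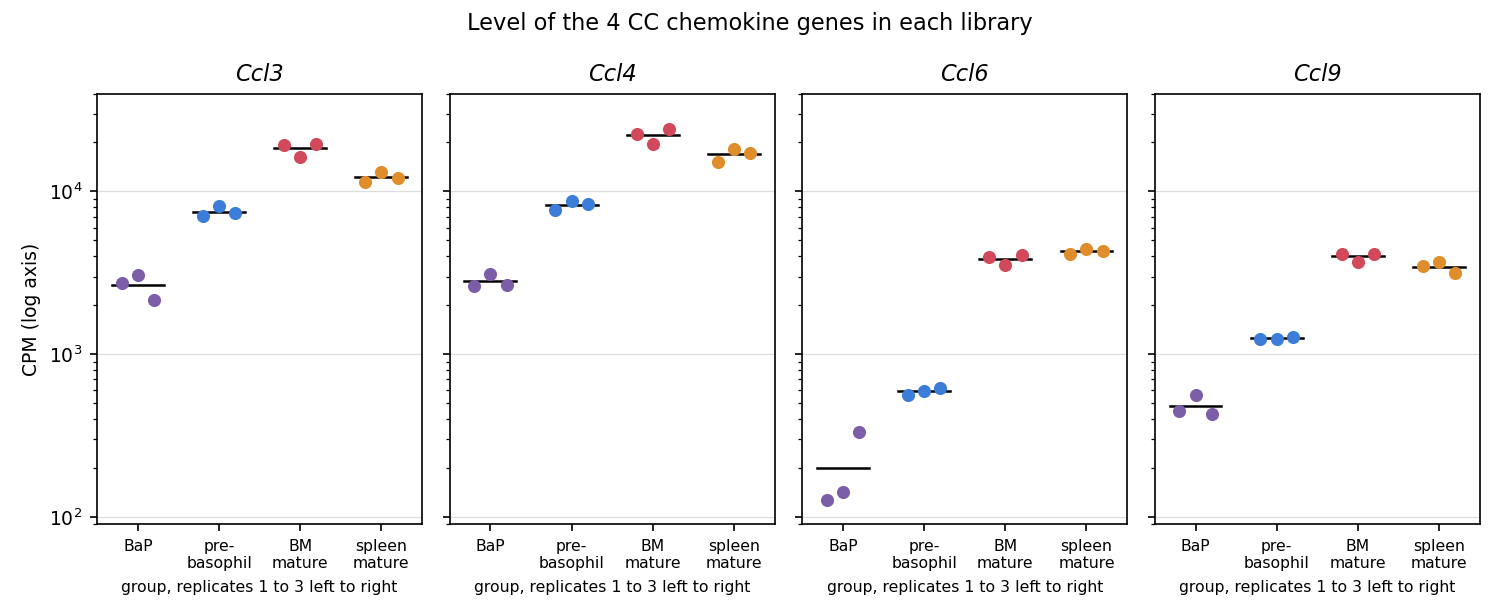
CPM of Ccl3, Ccl4, Ccl6 and Ccl9 in each of the 12 libraries on a log axis, with replicates 1 to 3 from left to right and a line at each group's mean. All 3 BaP points lie under all 3 pre-basophil points in each panel, and those under all mature points, while BaP replicate 3 lies apart in the Ccl6 panel at 332 CPM.

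Ccl3 was present at 2738, 3088 and 2165 CPM in BaP replicates 1, 2 and 3, and at 7040, 8146 and 7347 CPM in those of pre-basophils. It reached 19187, 16270 and 19680 CPM in BM mature and 11384, 13265 and 12144 CPM in spleen mature basophils. No groups overlapped, and spleen mature libraries lay between pre-basophils and BM mature basophils. The group means were 2664 ± 466, 7511 ± 571, 18379 ± 1843 and 12264 ± 946 CPM (SD, n = 3 each).

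Ccl4, the neighbour of Ccl3 on the opposite strand, followed the same order. Its levels were 2617, 3107 and 2677 CPM in BaPs, and 7686, 8741 and 8344 CPM in pre-basophils. They were 22545, 19715 and 24070 CPM in BM mature and 15262, 18303 and 17159 CPM in spleen mature basophils. The groups did not overlap, although the lowest BM mature library and the highest spleen library were only 19715 and 18303 CPM. The means were 2801 ± 267, 8257 ± 533, 22110 ± 2209 and 16908 ± 1536 CPM (SD, n = 3 each).

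Ccl6 had the widest range. It was at 128, 142 and 332 CPM in BaPs, and at 559, 595 and 622 CPM in pre-basophils. It was at 3971, 3535 and 4080 CPM in BM mature and 4137, 4453 and 4309 CPM in spleen mature basophils. By contrast to the other members, every spleen library lay above every BM mature library. The means were 201 ± 114, 592 ± 31.9, 3862 ± 288 and 4300 ± 158 CPM (SD, n = 3 each).

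Ccl9 was at 446, 558 and 432 CPM in BaPs, and at 1232, 1243 and 1285 CPM in pre-basophils. It was at 4154, 3695 and 4126 CPM in BM mature and 3471, 3702 and 3142 CPM in spleen mature basophils. The last 2 groups overlapped, since spleen replicate 2 exceeded BM mature replicate 2. The means were 479 ± 68.8, 1253 ± 27.9, 3992 ± 257 and 3439 ± 281 CPM (SD, n = 3 each).

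All 4 members differed among the 4 groups by edgeR's F test, with adjusted p of 6.49e-08 for Ccl3, 1.41e-08 for Ccl4, 1.04e-07 for Ccl6 and 5.46e-09 for Ccl9. So did 57.8% of all genes tested, so that a difference among the groups was common in these data. The share of genes tested whose groups did not overlap is not given here, so that the lack of overlap described for the members is a description only.

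Compared with BM mature basophils, pre-basophils displayed lower levels of all 4 chemokines. All 4 members were called lower, against 11.0% of genes tested, while 16.3% of genes tested were called higher. The members were chosen with earlier results of these data known, so that this and later counts of members are descriptions only. Ccl6 was 6.52-fold lower, with a log2 fold change of -2.71 (SE 0.28, edgeR adjusted p = 1.34e-05). Ccl9 was 3.19-fold lower (log2 fold change -1.67, SE 0.12, edgeR adjusted p = 1.77e-06). Ccl4 was 2.68-fold lower (log2 fold change -1.42, SE 0.13, edgeR adjusted p = 6.59e-06). Ccl3 was 2.45-fold lower (log2 fold change -1.29, SE 0.15, edgeR adjusted p = 2.98e-05). The 95% interval of Ccl6, from -3.25 to -2.16 on the log2 scale, lay apart from those of the other 3 members, the nearest of which was that of Ccl9 from -1.91 to -1.44. Summed neutrophil markers were 385 to 1947 CPM in pre-basophils and 73.9 to 103 CPM in BM mature basophils, and monocyte or macrophage markers were 227 to 277 and 379 to 418 CPM, with Fcgr1 at 0 in both groups. Sums of T or NK cell markers were 208 to 236 and 91.1 to 140 CPM, those of erythroid markers 42.8 to 56.0 and 184 to 203 CPM. Eosinophil marker sums of 55.7 to 60.1 and 67.5 to 104 CPM and mast cell marker sums of 3.20 to 5.31 and 0.955 to 1.75 CPM did not overlap either. The monocyte or macrophage list holds Ccr2 and the eosinophil list Ccr3, which are both reported below as receptors. With pre-basophils named before BM mature basophils, means were 75.7 and 202 CPM for Ccr2 and 5.11 and 17.9 CPM for Ccr3. The sums of those lists are thus not separate from the receptor results. The part of other cell types in the chemokine levels was not tested. Of the pre-basophil libraries, replicate 3 had the highest neutrophil marker sum (1947 CPM, against 385 and 879), and its Ccl6 level was 622 CPM, against 559 and 595 CPM.

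BaPs displayed still lower levels than pre-basophils, with log2 fold changes between -1.56 and -1.39. Again 4 of 4 members were called lower, against 4.29% of genes tested, and 2.79% of genes tested were called higher. The log2 fold changes were -1.50 for Ccl3 (SE 0.15), -1.56 for Ccl4 (SE 0.13), -1.55 for Ccl6 (SE 0.27) and -1.39 for Ccl9 (SE 0.12), with edgeR adjusted p of 9.72e-05, 3.05e-05, 0.00427 and 4.48e-05. These are 2.82-, 2.95-, 2.93- and 2.62-fold lower levels. The value of Ccl6 rested on BaP replicate 3, in which it was 332 CPM. Without that library the log2 fold change of Ccl6 was -2.13 (edgeR adjusted p = 4.34e-09), while those of Ccl3, Ccl4 and Ccl9 were -1.36, -1.52 and -1.31. All 4 remained called, against 6.47% of genes called lower without that library. In the same library Ccl5, a chemokine of T and NK cells, was at 969 CPM, against 3.82 and 4.95 CPM in the other BaP libraries, and neutrophil markers summed to 2126 CPM, against 170 and 717. The part of other cell types in its Ccl6 level was not tested.

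Between spleen and BM mature basophils the differences were smaller. Only Ccl3 was called lower in the spleen, 1 of 4 members against 4.67% of genes tested, with 3.16% of genes tested called higher. Its level was 1.5-fold lower, with a log2 fold change of -0.58 (SE 0.14, edgeR adjusted p = 0.0284). The call was lost on leaving out BM mature replicate 1 (edgeR adjusted p = 0.102) or 3 (0.0928), or spleen replicate 1 (0.0871), 2 (0.0549) or 3 (0.103), with log2 fold changes between -0.64 and -0.53. It was kept without BM mature replicate 2 (-0.66, edgeR adjusted p = 0.0397) and without BaP replicate 3, which is in neither group (-0.58, edgeR adjusted p = 0.000737). Ccl4 had a log2 fold change of -0.39 (SE 0.13, edgeR adjusted p = 0.0823), and without BaP replicate 3 it was called (-0.39, edgeR adjusted p = 0.0155). Ccl9 had one of -0.22 (SE 0.12, edgeR adjusted p = 0.292). That of Ccl6 was 0.15 (SE 0.26, edgeR adjusted p = 0.759), with an interval from -0.35 to 0.66. B cell markers were higher in the spleen libraries, with sums of 372 to 638 CPM against 48.1 to 72.6 CPM. Sums of neutrophil markers were lower there (58.6 to 63.0 against 73.9 to 103 CPM), as were those of monocyte or macrophage markers (297 to 334 against 379 to 418 CPM). Their part in these values was not tested.

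The remaining comparisons spanned more of the pathway and shared libraries with those above. Against BM mature basophils, the log2 fold changes of BaPs were -2.79 for Ccl3, -2.98 for Ccl4, -4.26 for Ccl6 and -3.06 for Ccl9, which are 6.90-, 7.89-, 19.1- and 8.34-fold lower levels. All 4 were called by edgeR (adjusted p of 3.1e-08, 8.37e-09, 2.1e-07 and 4.91e-09), against 19.7% of genes tested that were called lower. On leaving out BaP replicate 3 they became -2.65, -2.94, -4.83 and -2.98. Against spleen mature basophils, those of BaPs were -2.20, -2.59, -4.41 and -2.85 in the same order, all 4 called, with 24.6% of genes tested called lower. On leaving out that library they became -2.06, -2.55, -4.98 and -2.77. Those of pre-basophils against spleen mature basophils were -0.71, -1.03, -2.86 and -1.46, again all 4 called, with 20.5% of genes tested called lower. The smallest of these 12 differences, that of Ccl3 between pre-basophils and spleen mature basophils, had an edgeR adjusted p of 0.00139.

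**Figure D2:**
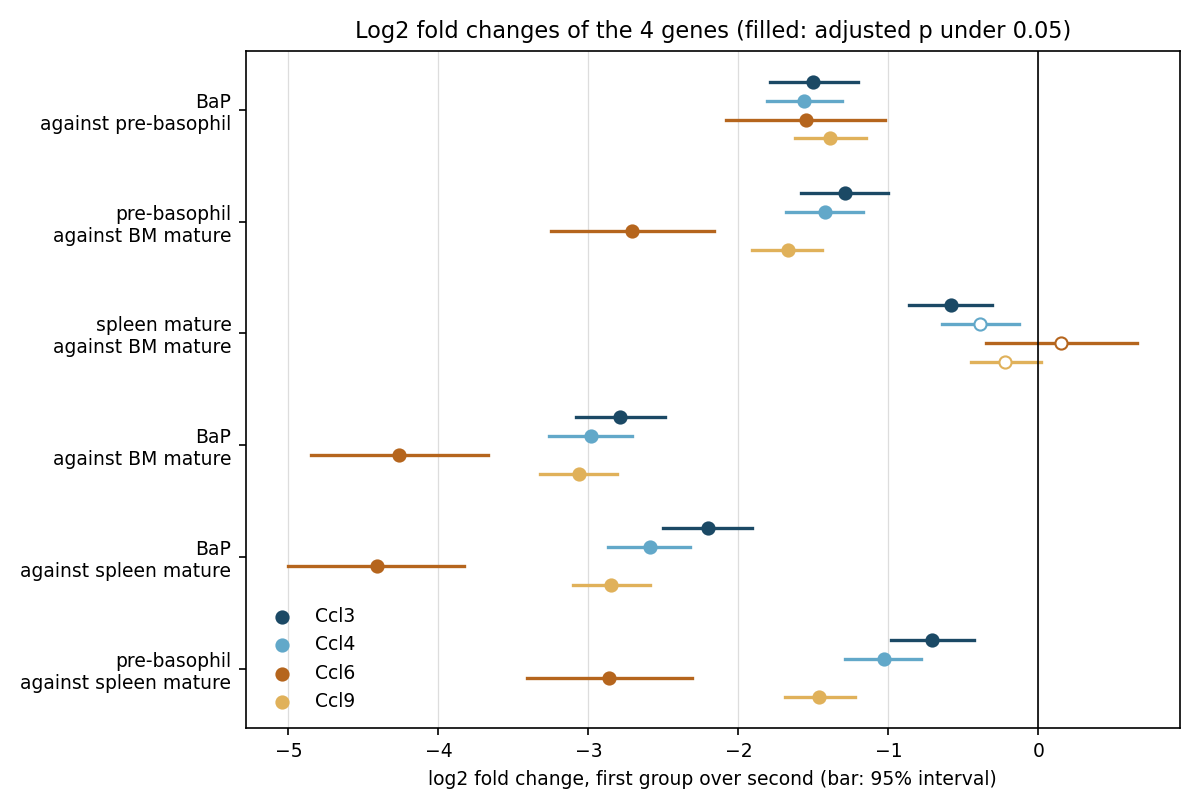
Log2 fold changes of the 4 genes in the 6 comparisons, the level of the group named at the top of each label over that of the other, with bars for 95% intervals and filled points for an adjusted p under 0.05 by edgeR. Ccl6 lies farthest to the left in each comparison of BaPs or pre-basophils with mature basophils, and open points appear only between spleen and BM mature basophils, for Ccl4, Ccl6 and Ccl9.

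Where reads cover whole transcripts, levels of different genes are compared per length of transcript. In BM mature basophils Ccl4 was at 33500 ± 3348 and Ccl3 at 23994 ± 2406 CPM per kilobase, whereas Ccl6 was at 2682 ± 200 and Ccl9 at 1328 ± 85.5 (SD, n = 3 each). On this scale Ccl6 stood above Ccl9 in both mature groups, the values in the spleen being 2986 ± 110 and 1144 ± 93.6. In pre-basophils Ccl6 and Ccl9 did not differ beyond their spread, at 411 ± 22.1 and 417 ± 9.27 CPM per kilobase, and in BaPs they were at 139 ± 79.2 and 159 ± 22.9. The order Ccl4 above Ccl3 above both others held for the group means of all 4 groups, although in BaPs Ccl4 (4243 ± 405) and Ccl3 (3478 ± 609) lay within about a spread of each other. CPM per kilobase assumes that reads covered whole transcripts evenly, which was not tested. Without division by length, Ccl6 was at 3862 and Ccl9 at 3992 CPM in BM mature basophils. Their order in that group thus rests on this assumption.

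**Figure D3:**
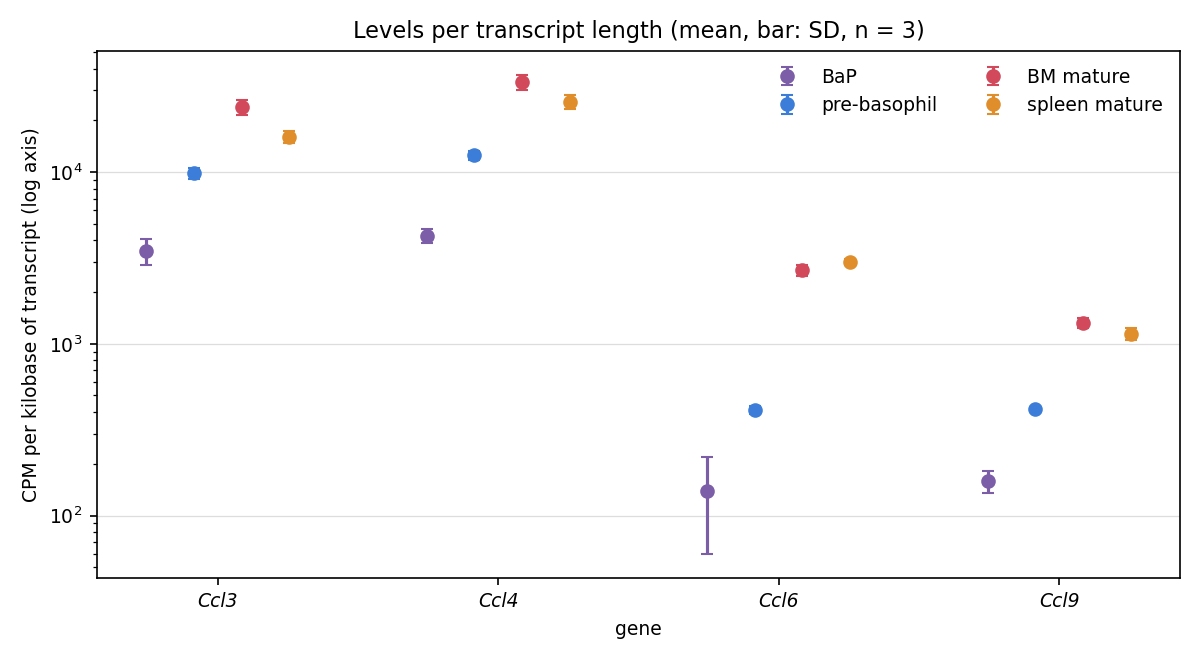
Mean CPM per kilobase of transcript with SD bars (n = 3) for each gene and group on a log axis. Ccl3 and Ccl4 lie above Ccl6 and Ccl9 in every group. On this scale Ccl6 passes from the level of Ccl9 in pre-basophils (411 and 417) to above it in BM mature basophils (2682 and 1328). The scale assumes even coverage of transcripts, which was not tested.

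Ratios between members within a library do not depend on how libraries are scaled. The log2 ratio of Ccl6 to Ccl9 counts averaged -1.38 ± 0.87 for BaPs and -1.08 ± 0.05 for pre-basophils, and -0.05 ± 0.03 for BM and 0.33 ± 0.11 for spleen mature basophils (SD, n = 3 each). The 6 CLEC12A-high libraries averaged -1.23 and the 6 mature libraries 0.14, a difference of -1.37 (exact two-sided permutation test, p = 0.00216, adjusted over the 3 ratios 0.00325). This p is the smallest that the test can give, and all 6 CLEC12A-high libraries lay under all 6 mature libraries. Each side pools different sorted populations, whose libraries the test takes as alike. Same-numbered libraries of BaPs and pre-basophils were taken to pair, yet they enter the test as separate, so that its p may be too small. Both limits also hold for the other ratios. Pre-basophils against BM mature basophils alone are given in the closing section. BaP replicate 3 had 0.768 counts of Ccl6 per count of Ccl9, against 0.287 and 0.255 in the other BaP libraries, and without it the difference was -1.54.

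The shift of Ccl3 against Ccl4 was smaller. Their log2 ratio averaged -0.08 ± 0.20 for BaPs and -0.14 ± 0.04 for pre-basophils, and -0.27 ± 0.03 for BM and -0.46 ± 0.04 for spleen mature basophils (SD, n = 3 each). The difference of CLEC12A-high from mature libraries was 0.25 (exact two-sided permutation test, p = 0.00866, adjusted 0.00866). The ranges of both sets overlapped through BaP replicate 3 alone, at -0.31, and without it the difference was 0.29. In the spleen all 3 libraries had fewer Ccl3 counts per Ccl4 count (0.746, 0.725 and 0.708) than any BM mature library (0.851, 0.825 and 0.818). The difference between tissues was -0.20 on the log2 scale (exact two-sided permutation test, p = 0.1, the smallest that 3 libraries against 3 can give).

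The sum of Ccl3 and Ccl4 counts was 9.33, 8.85 and 6.34 times that of Ccl6 and Ccl9 in BaPs, and 8.22, 9.19 and 8.23 times in pre-basophils. It was 5.14, 4.98 and 5.33 times in BM mature and 3.50, 3.87 and 3.93 times in spleen mature basophils. On the log2 scale the CLEC12A-high libraries averaged 3.05 and the mature libraries 2.14, a difference of 0.91 (exact two-sided permutation test, p = 0.00216, adjusted 0.00325), and 0.99 without BaP replicate 3.

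**Figure D4:**
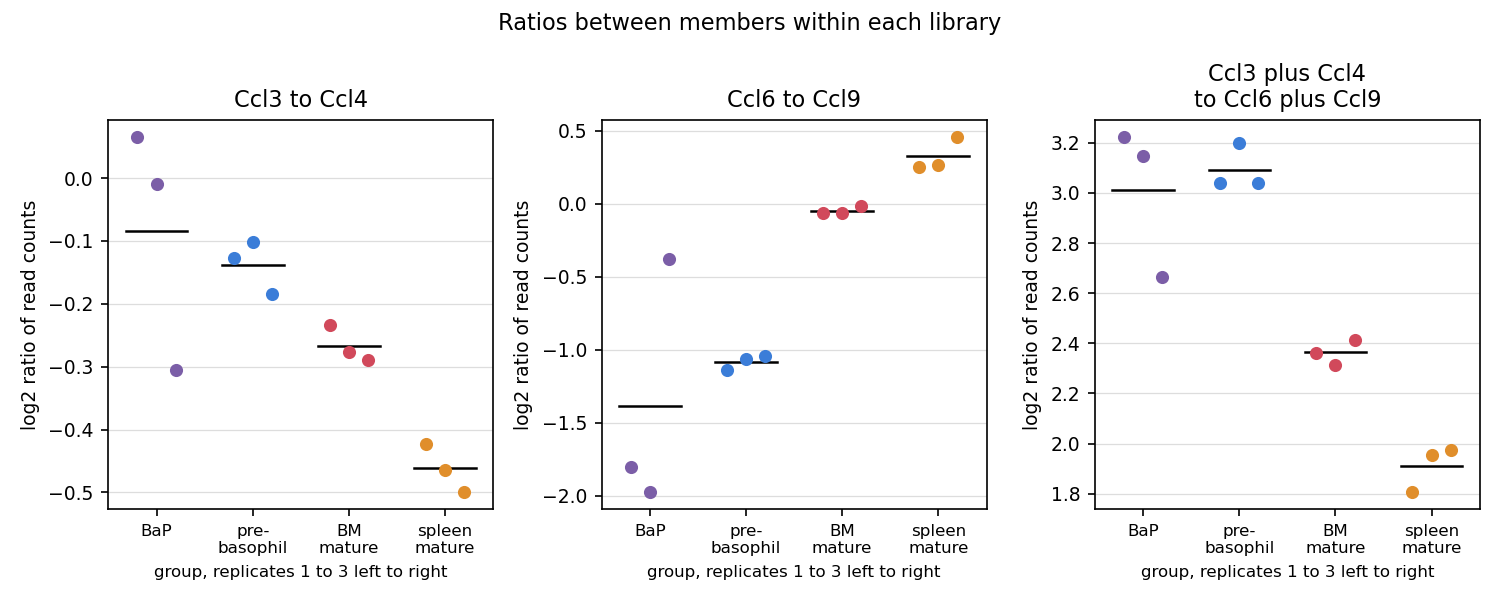
Log2 ratios of read counts within each library for Ccl3 to Ccl4, Ccl6 to Ccl9 and the sum of the former pair to that of the latter, with a line at each group's mean. BaP replicate 3 lies apart from the other BaP libraries in each panel (0.768 counts of Ccl6 per count of Ccl9, against 0.287 and 0.255), and the spleen libraries lie at the end away from BaPs in each panel.

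Over the 12 libraries, log2 CPM of Ccl3 and Ccl4 had a Pearson correlation of 0.993 and that of Ccl4 and Ccl9 of 0.992. The lowest value was that of Ccl3 and Ccl6, at 0.916. These values describe 4 groups of 3 libraries and mostly reflect the differences between groups, and all genes share each library's depth and scaling. Among 8435 genes with a mean of at least 10 CPM, those most like Ccl3 were Lilrb4a, an inhibitory receptor of myeloid and mast cells (0.9951), the actin-binding Cnn2 (0.9939) and Gm47922 (0.9936). Those most like Ccl4 were Gm49339 (0.9952), Hcls1 (0.9942) and Vasp (0.9942), the latter an actin regulator. Those most like Ccl6 were S100a10 (0.9975), which encodes a partner of annexin A2, Dop1b (0.9943) and Nxpe4 (0.9941). Those most like Ccl9 were Vasp (0.996), Igsf6 (0.9944) and Ccpg1 (0.9935). In the order BaP, pre-basophil, BM mature, spleen mature, the mean level of Lilrb4a was 449, 1252, 2863 and 2008 CPM, highest in BM mature basophils like that of Ccl3. Nxpe4 had means of 5.96, 17.0, 96.6 and 97.2 CPM in the same order and, like Ccl6, was nearly level between both mature groups.

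The other 2 genes of the span were at low levels. E230016K23Rik, a non-coding gene on the opposite strand that overlaps Ccl6, had means of 1.63, 2.55, 4.02 and 5.50 CPM in the 4 groups and its difference of pre-basophils from BM mature basophils did not pass the test (edgeR adjusted p = 0.157). Whether the libraries kept the strand is unknown here, so that reads cannot be told apart where the exons of both genes overlap. Rpl9-ps1 had 10, 11, 8 and 26 counts in the 4 groups and was not tested. Ccl5, the next protein-coding gene beyond Ccl9, had means of 326 ± 557, 10.1 ± 8.71, 43.4 ± 24.5 and 42.8 ± 6.61 CPM (SD, n = 3 each), of which the BaP value came from replicate 3. It was at 5.87, 4.38 and 20.2 CPM in pre-basophils and at 32.1, 26.5 and 71.5 CPM in BM mature basophils, without overlap. The log2 fold change of this difference was -2.02 (edgeR adjusted p = 0.324), or -2.52 (edgeR adjusted p = 0.194) with the replicate block, in which same-numbered libraries are paired. Without BaP replicate 3, which had 969 CPM and entered the shared spread, it was -2.0 and was called (edgeR adjusted p = 0.000721). Wfdc17, beyond Ccl4, did not pass the filter.

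The remaining CC chemokines were scarce in these cells. Of 12 with a row in the table, 4 were tested (Ccl5, Ccl25, Ccl27a and Ccl17), and edgeR called 0 of them for pre-basophils against BM mature basophils. In that comparison 0 had an unadjusted p under 0.05, and DESeq2 and limma-voom also called 0, DESeq2 giving no adjusted p for Ccl5. For BaPs against pre-basophils and for spleen against BM mature basophils all 3 tools called 0 as well, with 1 gene at an unadjusted edgeR p under 0.05 in each. Without BaP replicate 3, Ccl17 was called lower in spleen than in BM mature basophils (log2 fold change -1.53, edgeR adjusted p = 0.0332). Ccl17, which encodes an attractant of T cells, had means of 2.67 ± 1.17, 4.35 ± 0.842, 2.77 ± 1.23 and 0.931 ± 0.629 CPM (SD, n = 3 each) from BaPs to spleen mature basophils. It was the 1 gene of the 4 called higher in pre-basophils than in spleen mature basophils (log2 fold change 2.24, edgeR adjusted p = 0.00239), where 25.2% of genes tested were called higher, and DESeq2 and limma-voom called it too. It was also the 1 gene called higher in BaPs than in spleen mature basophils (1.42, edgeR adjusted p = 0.0322), where 29.8% of genes tested were, but not by limma-voom (adjusted p = 0.0618). Ccl25 had means of 4.55, 4.04, 2.68 and 4.17 CPM and Ccl27a of 4.61, 2.83, 2.28 and 2.27 CPM from BaPs to spleen mature basophils. The genes for eotaxins and monocyte chemoattractants in the list stayed at or near 0, with 1 count of Ccl2 over all libraries and at most 4 counts of Ccl11 or Ccl24 in any group. Summed over the 12, they took up 0.00231% of the counts of pre-basophils and 0.00451% of those of BM mature basophils.

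Of the CC chemokine receptors, 8 of 15 were tested. Ccr1, the receptor shared by CCL3, CCL6 and CCL9, had means of 119 ± 43.8, 205 ± 15.4, 215 ± 12 and 172 ± 4.21 CPM (SD, n = 3 each) from BaPs to spleen mature basophils. With all libraries it was the 1 receptor that edgeR called lower in BaPs than in pre-basophils (log2 fold change -0.80, edgeR adjusted p = 0.0322), against 4.29% of genes tested, while DESeq2 also called Ccrl2 (-0.57, adjusted p = 0.0438). Without BaP replicate 3, in which it was at 71.8 CPM against 125 and 159 CPM, Ccr1 had a log2 fold change of -0.52 (edgeR adjusted p = 0.00611), and Ccr2 was called lower as well (edgeR adjusted p = 1.42e-06). Its log2 fold change for pre-basophils against BM mature basophils was -0.06 (edgeR adjusted p = 0.85). In pre-basophils, 2 of the 8 receptors were lower than in BM mature basophils, against 11.0% of genes tested. They were Ccr2 (75.7 ± 12.3 against 202 ± 22.2 CPM, log2 fold change -1.41, edgeR adjusted p = 0.0331) and Ccr3 (5.11 ± 0.643 against 17.9 ± 4.52 CPM, log2 fold change -1.80, edgeR adjusted p = 0.0128). Ccr2 encodes the main receptor of monocyte chemoattractants and Ccr3 that of eotaxins. Ccr2 also stands in the monocyte or macrophage marker list and Ccr3 in the eosinophil list. The part of those cell types in the receptor levels was not tested. In the spleen 1 receptor, the atypical Ccrl2, was called lower (71.9 ± 12.9 against 160 ± 27.4 CPM, log2 fold change -1.15, edgeR adjusted p = 0.00401), against 4.67% of genes tested. Without BaP replicate 3, Ccr1 was also called lower there (-0.32, edgeR adjusted p = 0.0337), and Ccr3 (0.89, edgeR adjusted p = 0.00497) and Ccr7 (3.09, edgeR adjusted p = 0.000513) were called higher. With the replicate block 1 receptor was called lower and 1 higher in the spleen, where 1703 of 15083 genes were called in either direction. The median log2 fold change of the receptors tested was -0.80 for pre-basophils against BM mature basophils, where that of all genes tested was 0.00.

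Among chemokines of the other families, 6 of 16 were tested, and Cxcl2, a neutrophil attractant, had the highest level. Its means were 540 ± 154, 1072 ± 121, 1237 ± 294 and 598 ± 151 CPM (SD, n = 3 each) from BaPs to spleen mature basophils. It was lower in BaPs than in pre-basophils (log2 fold change -0.99, edgeR adjusted p = 0.0231), also without BaP replicate 3 (-0.77, edgeR adjusted p = 0.0141), and lower in spleen than in BM mature basophils (-1.05, edgeR adjusted p = 0.0189). Its log2 fold change for pre-basophils against BM mature basophils was -0.21 (edgeR adjusted p = 0.548). Cxcl3, named after its values were seen, was also lower in the spleen (-2.38, edgeR adjusted p = 0.0025), and with the replicate block it was called lower in BaPs than in pre-basophils (-1.0, edgeR adjusted p = 0.0184). The platelet chemokine gene Ppbp was higher in the spleen (3.32, edgeR adjusted p = 0.0491, limma-voom adjusted p = 0.0231), while DESeq2 gave it no adjusted p. In all, 2 of the 6 were lower in the spleen, against 4.67% of genes tested, and 1 was higher, against 3.16%. For pre-basophils against BM mature basophils edgeR, DESeq2 and limma-voom called 0 of the 6, with 1 at an unadjusted edgeR p under 0.05, and without BaP replicate 3 edgeR called Pf4 (-3.40, adjusted p = 0.000412) and Ppbp (-2.56, adjusted p = 0.00155) lower, against 15.8% of genes. Platelet or megakaryocyte markers, a list that holds Ppbp and Pf4, summed to 671 to 1007 CPM in the spleen and 574 to 649 CPM in BM mature basophils, and their part was not tested. Pf4 had means of 36.1 ± 59.1, 4.58 ± 3.18, 48.6 ± 53.1 and 39.1 ± 7.79 CPM.

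Immediate-early genes, which are induced within minutes of stimulation and also by the handling of cells, changed in part in the same direction as the 4 chemokines. The list tested held 27 immediate-early and dissociation stress genes, among them the heat shock genes Hspa1a, Hspa1b and Hsp90aa1. In pre-basophils 14 of the 27 were lower than in BM mature basophils, against 11.0% of all genes tested, and the other 13 did not pass the test. The median log2 fold change of the list was -0.81, against 0.00 over all genes tested. Jun was at 6860 ± 1067 against 16468 ± 479 CPM (log2 fold change -1.26, edgeR adjusted p = 8.87e-05), Egr1 at 5695 ± 109 against 13172 ± 1099 CPM (-1.21, edgeR adjusted p = 0.000264) and Fosb at 12355 ± 1734 against 26763 ± 5788 CPM (-1.12, edgeR adjusted p = 0.0026). All 3 encode transcription factors. With the replicate block 15 were lower and 2 higher, the heat shock genes Hspa1a and Hspa1b, near-identical copies between which reads may be split. In BaPs against pre-basophils, 13 were lower, against 4.29% of genes tested, and the other 14 did not pass the test, with a median of -0.58 against 0.02. Without BaP replicate 3, 16 were lower, against 6.47% of genes, with a median of -0.56, and with the replicate block 14 were lower and 3 higher. In spleen against BM mature basophils, Jun and Junb were higher and Ier3 and Dusp1 lower, while the other 23 did not pass the test. These counts of 2 and 2 stand against 3.16% and 4.67% of genes tested, and without BaP replicate 3 they were 6 and 5, where 18.0% of genes were called in either direction. With the replicate block they were 5 and 5, where 1703 of 15083 genes were called in either direction. The list took up 3.98%, 5.77%, 10.8% and 13% of counts from BaPs to spleen mature basophils. The 4 chemokines together took up 4.2% of counts in BM and 3.51% in spleen mature basophils. In the same order, Ccl3 took up 1.6% and 1.17%, Ccl4 1.92% and 1.61%, Ccl6 0.336% and 0.41%, and Ccl9 0.347% and 0.328%. The part of cell handling in the chemokine levels was not tested.

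Genes of NF-kB and its feedback, a pathway known to drive Ccl3 and Ccl4 in activated cells, changed in both directions. Of 18 tested, 4 were lower in pre-basophils than in BM mature basophils (Nfkbia, Nfkbid, Nfkbiz and Birc3) and 1 was higher (Tnf), against 11.0% and 16.3% of genes tested, with a median log2 fold change of -0.25. The most abundant, Nfkbia, which encodes an inhibitor of NF-kB, was at 6555 ± 122 against 9990 ± 758 CPM (log2 fold change -0.61, edgeR adjusted p = 0.0213). Nfkbiz was at 2430 ± 116 against 5541 ± 367 CPM (-1.19, edgeR adjusted p = 0.000138). In BaPs against pre-basophils 4 were lower (Nfkbia, Nfkbid, Nfkbiz and Tnf), against 4.29% of genes tested, and the other 14 did not pass the test, with a median of -0.41. The count was 8 without BaP replicate 3 (against 6.47% of genes, with a median of -0.49), 8 with DESeq2 and 7 with the replicate block. In spleen against BM mature basophils 5 were lower (Nfkbia, Nfkbib, Tnfaip3, Tnf and Icam1) and 1 higher (Cd83), against 4.67% and 3.16% of genes tested. Cd83, at 9.76, 4.13 and 8.63 CPM in the spleen and 0.636, 0.25 and 1.31 CPM in BM mature basophils, was not called by limma-voom (adjusted p = 0.0681), and DESeq2 gave it no adjusted p. Tnfaip3, a feedback inhibitor, was at 1846 ± 574 in the spleen against 5617 ± 1553 CPM (-1.61, edgeR adjusted p = 0.00389).

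Of 9 genes for factors that bind or degrade AU-rich mRNA, 3 were lower in pre-basophils than in BM mature basophils (Zfp36, Zfp36l1 and Zc3h12a) and 1 was higher (Khsrp), against 11.0% and 16.3% of genes tested, with a median log2 fold change of 0.03. limma-voom did not call Zfp36l1 (adjusted p = 0.0529). With the replicate block, Zfp36l2 (-1.05, edgeR adjusted p = 0.0206) and Hnrnpd (0.68, edgeR adjusted p = 0.0268) were called as well. Zfp36, whose product binds AU-rich elements and hastens mRNA decay, stood in this list and in that of immediate-early and stress genes. Its binding to the 4 chemokine transcripts was not tested. Zfp36 was at 1730, 2251 and 2127 CPM in BaPs and 4052, 4628 and 4827 CPM in pre-basophils. It was at 16170, 13499 and 16417 CPM in BM mature and 16214, 18178 and 17528 CPM in spleen mature basophils. It was thus high where the 4 chemokines were high, and the pre-basophil level was lower than the BM mature level by a log2 fold change of -1.77 (edgeR adjusted p = 2.08e-06). Zc3h12a, which encodes an RNA-cleaving enzyme, was at 190 ± 3.80 against 341 ± 36.4 CPM (-0.84, edgeR adjusted p = 0.0012), and Zfp36l2 was at 302 ± 31.3 against 647 ± 210 CPM (-1.10, edgeR adjusted p = 0.0505, or 0.000849 without BaP replicate 3). In BaPs against pre-basophils, Zfp36 and Zc3h12a were lower, against 4.29% of genes tested, with the other 7 not passing the test, with and without BaP replicate 3. In spleen against BM mature basophils, Zfp36l1 and Zc3h12a were lower, against 4.67% of genes tested, and the other 7 did not pass the test.

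**Figure D5:**
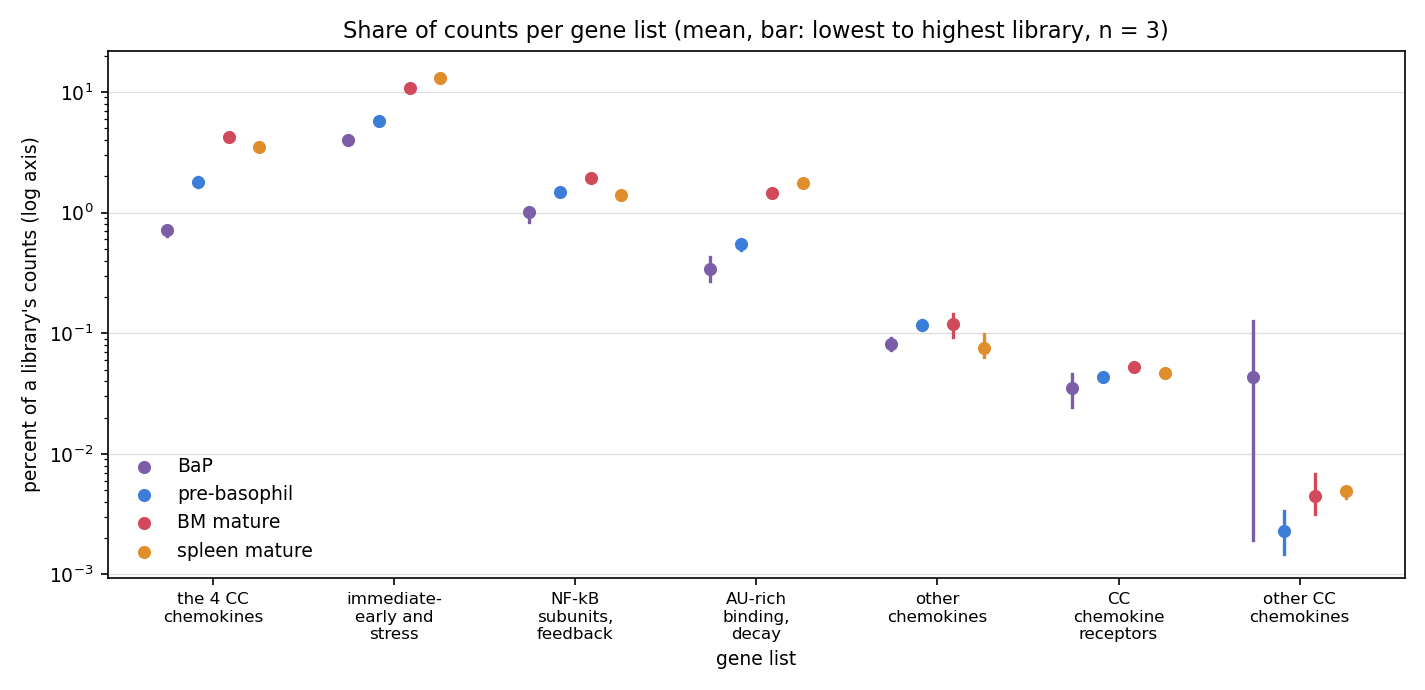
Percent of a library's counts taken by the 4 CC chemokines and by each gene list, on a log axis, with points for the mean of 3 libraries and bars from the lowest to the highest library. The 4 chemokines go from 0.713% in BaPs to 4.2% in BM mature basophils and 3.51% in those of the spleen, and the long bar of the other CC chemokines in BaPs comes from Ccl5 in replicate 3.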

How the data were processed

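For each of the 12 libraries the authors deposited raw counts of reads, 1 value per gene. They captured polyadenylated RNA of sorted cells, amplified it by TAS-Seq (a tailing and whole-transcriptome PCR workflow) and sequenced fragmented libraries. Reads were trimmed with Cutadapt 3.4, mapped to reference transcripts with Bowtie2 2.4.2 and counted per gene. No molecular identifiers are mentioned, so PCR copies count as reads, and limits from counts cover counting error only. How reads matching several genes were assigned was not given. The members of this gene set and the gene lists were chosen with earlier results of these data known.

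After filterByExpr removed low genes, the counts were scaled by TMM and fitted with edgeR 4.0.16 (R 4.3.3) in 1 quasi-likelihood model of all 12 libraries with a coefficient per group. Adjusted p are Benjamini-Hochberg values over the 15083 genes tested, and genes under 0.05 were called. The study's package, TCC, was replaced by this fit, and its scaling scheme was rebuilt as an alternative. SE were derived from the F statistic, with 95% intervals at the normal quantile. CPM used TMM-scaled library sizes, and log2 CPM a prior count of 2. Ratios of counts were compared by exact permutation over libraries. The code was tested on simulated data.

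Within a group, a chi-square test of replicate pairs gave 4.16 to 35 per degree of freedom, so that each library counted as 1 replicate. The labels number replicates from 1 to 3 in each group. Deviations of same-numbered libraries from their group means correlated at 0.125 to 0.262 between the 3 BM groups, where the numbers were taken to pair libraries, and at 0.0 to 0.09 between spleen and BM groups, where they were not. The replicate block nevertheless gave same-numbered libraries of every group a shared term, those of the spleen included.

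Named genes were every member, the 3 most abundant tested genes of each list, tested CC chemokines and CC receptors of at least 10 CPM in some group (1 receptor is not reported here), the 3 genes most correlated with each member, and genomic neighbours. Called genes of small counts were named after their values were seen. Positions and 3′ UTRs came from GENCODE M21 (GRCm38), promoters from RefSeq (GRCm38.p6).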

Additional observations from a re-analysis of the deposited data

How the results depend on the processing

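Under 4 other scalings, no filter, DESeq2, limma-voom, the replicate block and fits of 2 groups only, no member changed direction in a comparison in which it was called, and 363 values of single members, leave-one-out fits included, kept their side of the threshold, while 9 did not. The exceptions were Ccl4 in spleen against BM mature basophils, which was called by DESeq2 (log2 fold change -0.396, adjusted p = 0.0217) in a fit of 2 groups only (-0.393, edgeR adjusted p = 0.0385) and without BaP replicate 3 (-0.388, edgeR adjusted p = 0.0155), with leave-one-out values from -0.462 to -0.313, Ccl6 in BaPs against pre-basophils, not called in a fit of 2 groups only (-1.533, edgeR adjusted p = 0.0575), and Ccl3 in spleen against BM mature basophils, whose leave-one-out values ran from -0.663 to -0.527 with the call lost in 5 of 7. The cause was not tested.

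Counts of genes called moved more. For BaPs against pre-basophils, 1068 became 1620 with library size alone, 2091 without a filter and 375 with 2 groups only, and 382 to 1831 on leaving out 1 library (1831 without BaP replicate 3, 471, 390 and 382 without pre-basophil replicates 1, 2 and 3). For spleen against BM mature basophils, 1181 became 1796 without a filter and 2340 with 2 groups only, and 241 to 757 on leaving out any 1 of the 6 libraries compared, or 2653 without BaP replicate 3, which is not among them (chosen after seeing the data). Library size alone brought the median change over genes to as much as 0.481 on the log2 scale (BaPs against BM mature basophils) and the share of calls that were higher from 59.8% to 82.5% in pre-basophils against BM mature basophils, from 39.4% to 79.6% in BaPs against pre-basophils and from 40.4% to 60.6% in spleen against BM mature basophils. Relative to that shift the members stayed lower in every comparison in which they were called.

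With the replicate block, which pairs same-numbered libraries, the log2 fold changes for pre-basophils against BM mature basophils were -1.30 (Ccl3), -1.43 (Ccl4), -2.71 (Ccl6) and -1.67 (Ccl9), and for Ccl6 in BaPs against pre-basophils -1.63. The block changed no call of a member or ratio and moved counts of calls over all genes by less than 1.5 times. Calls it changed among the gene lists are given beside them above, and those values were computed after seeing the data. With only pre-basophils against BM mature basophils, the ratio differences were 0.129 (Ccl3 to Ccl4), -1.034 (Ccl6 to Ccl9) and 0.73 (both sums), each with an exact p of 0.1, the smallest that 3 libraries against 3 allow. Depth was no limit for the members.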
